A study of Mus musculus with 6 samples.

Results

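Regions of open chromatin found only in touch dome keratinocytes are described here, 855 of the 75738 consensus regions of the series (1.13%). They were chosen by the presence of peaks in ATAC-seq, an assay in which a transposase cuts and tags accessible DNA. Overlapping peaks of the 6 libraries, sharing 1 bp or more, formed 1 consensus region each, and a library with a peak in a region is called open there. A region was kept when both touch dome libraries were open and none of the other 4 libraries was. The measured values that selected the members were thus the peaks of all 6 libraries, so every count below is a description and carries no test.

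The study sorted 3 populations from the back skin of TNC-CREER; tdTomato mice on a C57BL/6 strain background, with 2 libraries per population. All mice had received tamoxifen at 100 µg per g on postnatal days 51 and 52 and were 60 days old, so the IFE and HF cells came from treated mice too. Touch dome cells were positive for EPCAM, SCA1, α6-integrin and the tdTomato reporter, which the Cre of the Tnc gene (tenascin-C) switches on. Interfollicular epidermis (IFE) cells had the same 3 surface markers without tdTomato. Hair follicle (HF) cells had EPCAM and α6-integrin, but neither SCA1 nor tdTomato. Each library was made from 50000 sorted cells. The tdTomato reporter and the surface markers, and not position in the skin, therefore defined the touch dome gate. Since tamoxifen was given on days 51 and 52, the reporter need not show Tnc expression at 60 days. The labels do not say whether separate mice gave the libraries of a population. The touch dome label was checked at Tnc, whose Cre also set the gate, where 17 and 17 consensus regions were open in the touch dome libraries, against 11 and 11 in IFE and 13 and 12 in HF. None of these 17, all within 50 kb of the gene, was a touch dome only region. Tnc was also the nearest gene of 2 touch dome only regions farther away, 1 of them at 109 kb. Not every touch dome marker was most open there. Krt17, the keratin 17 gene, had 2 and 2 open regions in touch dome, 3 and 2 in IFE, and 3 and 3 in HF. Cadm1, an adhesion gene, had 21 and 24 in touch dome, 15 and 14 in IFE, and 31 and 25 in HF. Over all 16 genes of the touch dome keratinocyte list, 109 and 122 regions were open in touch dome, 93 and 96 in IFE, and 119 and 108 in HF. Krt17 and Cadm1 were chosen after their values were seen.

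Touch domes are specialised patches of epidermis beside hair follicles, where columnar keratinocytes surround Merkel cells and the endings of slowly adapting touch nerves. Their keratinocytes are known for Hedgehog signalling from the nerve and for keratin 17. Accessible regions lie at gene starts, where many cell types share them, and at distal sites such as enhancers, which differ more between cell types.

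The touch dome only regions seldom held a listed start site. Some that did are shown with their sequence because it can be read there. Of the 818 members on chromosomes with start sites in the RefSeq table (GRCm38.p6, the assembly behind mm10), 12 (1.47%) held a start site, against 14.9% of all consensus regions. The listed start sites do not cover every gene, so members at gene starts can be missed. The Kcnv1 member, inside a gene span of 19.8 kb, lay 1210 kb from the nearest listed start site. The Zfpm2 member over the low-coordinate end of that gene lay 118 kb from one. The 12 start sites belonged to 7 long non-coding RNA genes and 5 protein-coding genes. The coding genes were Ccnjl, a cyclin J-like gene, Pde4a, a cyclic AMP phosphodiesterase, Arhgap45, a GTPase-activating protein, Pkd1l2, a polycystin family member, and 4930583I09Rik. The stretches below are the part of the 250 bases before the start site that lies inside the touch dome only region, read 5′ to 3′ on the strand of the gene. Capitals mark matches to the motifs named after them, and Pde4a holds none. Ccnjl and 4930583I09Rik are among the 10 members at gene ends with the longest peaks in both libraries, and Arhgap45 and Pde4a were chosen after the values were seen. At Pkd1l2 only 14 of these bases lie inside the region. The stretches lie at chr11:43528539-43528748 for Ccnjl, chr9:21184016-21184100 for Pde4a and chr10:80019425-80019674 for Arhgap45, all on the plus strand, and at chr17:64836072-64836321 on the minus strand for 4930583I09Rik.
Ccnjl: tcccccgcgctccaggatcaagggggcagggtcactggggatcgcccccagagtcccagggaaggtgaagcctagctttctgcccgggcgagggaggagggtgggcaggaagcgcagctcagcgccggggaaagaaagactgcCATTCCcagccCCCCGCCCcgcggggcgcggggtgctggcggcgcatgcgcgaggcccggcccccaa
Pde4a: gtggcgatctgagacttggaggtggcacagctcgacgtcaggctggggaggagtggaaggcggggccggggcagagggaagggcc
Arhgap45: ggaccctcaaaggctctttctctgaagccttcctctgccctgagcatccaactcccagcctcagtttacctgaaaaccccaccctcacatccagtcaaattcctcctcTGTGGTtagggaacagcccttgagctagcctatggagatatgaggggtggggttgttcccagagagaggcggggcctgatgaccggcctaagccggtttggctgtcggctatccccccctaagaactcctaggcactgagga
4930583I09Rik: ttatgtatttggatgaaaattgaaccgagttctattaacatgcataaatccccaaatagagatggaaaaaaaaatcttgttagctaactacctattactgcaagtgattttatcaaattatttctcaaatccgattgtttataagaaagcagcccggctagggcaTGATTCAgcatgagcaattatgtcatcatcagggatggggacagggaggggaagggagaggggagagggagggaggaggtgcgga

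The Ccnjl stretch matches the TEAD letters (GGAATG) and the SP/KLF letters (GGGCGGGG), each on the reverse strand. The Arhgap45 stretch matches the RUNX letters (TGTGGT). The 4930583I09Rik stretch matches the AP-1 letters (TGANTCA). Over the whole 250 bases and both strands, AP-1 letters occurred before 2 of the 12 start sites and before 6.75% of all 32851 start sites. TEAD letters occurred before 2 of 12 against 12.6% of all, and RUNX letters before 2 of 12 against 14.0%. The GATA factor letters (AGATAA) occurred before 1 of 12, against 9.99% of all. The E-box letters (CAGCTG) also occurred before 1, against 13.0%, and the SP/KLF letters before 1, against 16.1%. None of the motifs spelled out contains the letters of another, and a match describes the letters only. The other 9 motifs searched had no match in these windows. By their letters they were SOX (ACAATG), ETS (CCGGAAGT), GLI (GACCACCCA), LHX homeobox (CTAATTA), MITF (TCACGTGA) and POU (ATGCAAAT). Their shares over all start sites were 10.7%, 2.88%, 0.225%, 1.83%, 0.785% and 1.60%. The CTCF core, a p63-type repeat and NFI were searched by longer patterns, which held for 0.295%, 0.432% and 0.0365% of all start sites.

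By their median, the bases before the 12 start sites were poorer in G and C than those of shared promoters. Their median GC content was 45.6%, and their median number of CpG dinucleotides was 3. Start sites in regions open in all 6 libraries had medians of 61.2% and 17, and all start sites 52.4% and 6. Lower values than in shared promoters were not particular to touch dome. HF only start sites had medians of 53.2% and 5. IFE only start sites had a median of 4 CpG, and their median GC lay between those of touch dome only and HF only. Start sites in no region had 47.2% and 3, near the touch dome only values. The range over the 12 was wide, from 34.4% to 74.0% GC and from 1 to 26 CpG. Ccnjl held the upper end of both, at 74.0% and 26, and Pde4a followed with 61.2% and 8. The long non-coding RNA start sites ran from 34.4% to 49.2% GC. The other protein-coding ones were Arhgap45 at 56.8%, Pkd1l2 at 46.0% and 4930583I09Rik at 41.2%. The low median thus rests mainly on the non-coding start sites, and the comparison sets were not split by kind of gene.

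The libraries had 50153 and 59250 peaks in touch dome, 52219 and 51124 in IFE, and 54844 and 57131 in HF. The deposited lists hold no read count and no peak height. Sequencing depth is thus unknown, and a region without a peak is one where no peak was called, not one known to be closed. In sorted bulk cells, fewer cells with an open site and weaker opening per cell cannot be told apart. Touch dome replicate 2, with the most peaks, was open alone at 2047 regions, while touch dome replicate 1 was open alone at 460.

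The same rule gave 925 IFE only regions (1.22%) and 5249 HF only regions (6.93%). The touch dome count depended on which libraries were required. It was 2905 without touch dome replicate 1, 1337 without touch dome replicate 2 and 1291 without IFE replicate 1. Without IFE replicate 2, HF replicate 1 or HF replicate 2 it was 999, 965 and 940. When every library was held to the same number of peaks, the widest, there were 670 touch dome only, 1572 IFE only and 4576 HF only regions.

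Many regions lay just outside the rule. Another 763 regions had peaks in the 2 touch dome libraries and in exactly 1 other, of which 425 had their extra peak in IFE replicate 1, 142 in IFE replicate 2, 110 in HF replicate 1 and 86 in HF replicate 2. Regions that touch dome shared with both libraries of one other population were more numerous, with 4941 shared with IFE alone and 3045 shared with HF alone. The peaks of the members and of their neighbours in the rule were of like length. Members had a median covered length of 512 bp in touch dome replicate 1 and 588 bp in touch dome replicate 2, and the 763 regions with 1 extra library had 456 and 509 bp. Regions open in touch dome replicate 1 alone had 385 bp, and those in touch dome replicate 2 alone 394 bp. The member nearest to a peak of another population lay 41 bp from it, and it was the only member under 200 bp away. Among the regions left out although both touch dome libraries were open, the least overlap of an IFE or HF peak with the touch dome peaks was 59 bp.

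Touch dome only peaks were short. The covered length ran from 314 to 2180 bp in touch dome replicate 1, with quartiles of 401 and 705.5 bp, and from 299 to 2559 bp in touch dome replicate 2, with quartiles of 426 and 838.5 bp. The medians of all peaks in these libraries were 862 and 912 bp. In 653 members (76.4%) the peaks were below the library median in both libraries, and in 92 (10.8%) they reached it in both. As whole regions, touch dome only regions had a median width of 669 bp, against 497 bp for IFE only, 623 bp for HF only and 1293 bp for regions open in all 6 libraries.

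The libraries agreed in part on where each member was open. The stretch covered in both had a median of 435 bp, or 72.3% of the region. In 525 members (61.4%) the peaks were longer in touch dome replicate 2. Across the 855 members the covered lengths had a Spearman correlation of 0.566 and, on log2 lengths, a Pearson correlation of 0.624. These describe regions of the same libraries, which are not independent replicates.

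**Figure D1:**
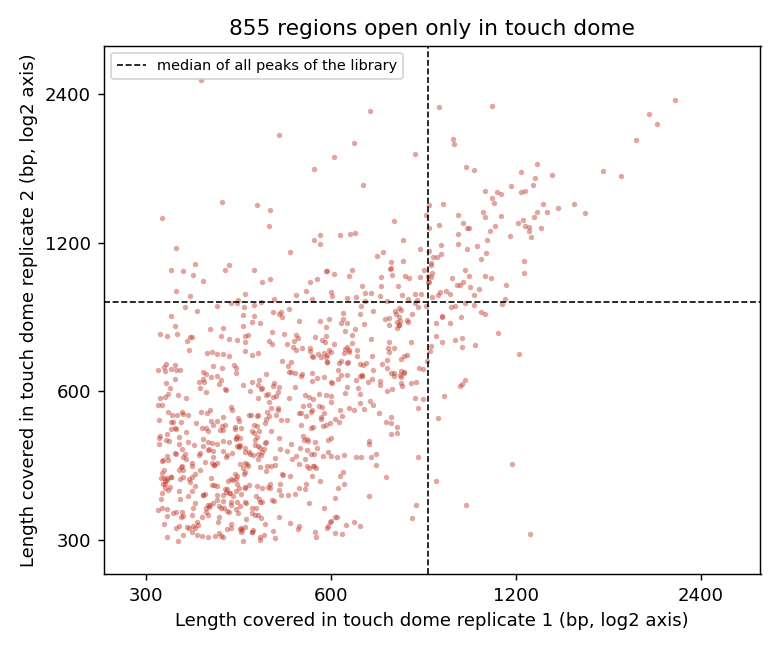
Length covered by peaks in touch dome replicate 1 (x, bp, log2 axis) and replicate 2 (y, bp, log2 axis), 1 point for each of the 855 touch dome only regions; dashed lines are the medians of all peaks of each library, 862 and 912 bp. Most points lie below both lines, and 92 lie at or above both.

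The 10 members with the longest peaks in both libraries were covered over 1371 bp or more in each. The longest was an intergenic region at chr16:62559955-62562290, with 2180 and 2336 bp in the touch dome libraries, 170 kb from Nsun3, the gene of a mitochondrial tRNA methyltransferase. A region inside Pde1a, a calmodulin-dependent phosphodiesterase gene, had 2036 and 2082 bp. One near Stk33, a kinase gene, had 1974 and 2185 bp at a distance of 46.4 kb. These 3 led the members by the covered length in the library where it was shorter.

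Next came Zfpm2, which encodes a zinc finger cofactor of GATA factors, with 2 of the 10 regions. An intergenic region 63.9 kb from Grm5, a metabotropic glutamate receptor gene, had 1664 and 1673 bp. Dock8, a guanine nucleotide exchange factor known from immune cells, had a region inside its span with 1493 and 1437 bp. The last 3 of the 10 belonged to Moxd1, a monooxygenase gene, Ppp1r1c, an inhibitor of protein phosphatase, and Fam3c, a secreted factor. The 10 regions covered 1371 to 2180 bp in the library where each was shorter.

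Most members lay away from gene ends. Within 1 kb of either end of a protein-coding gene lay 26 of the 855 touch dome only regions (3.04%, exact 95% interval 2.00% to 4.42%), against 4.97% of IFE only, 3.87% of HF only, 32.5% of regions open in all 6 libraries and 17.8% of all regions. Another 47.3% lay elsewhere inside a gene span, and 20.7% lay outside but within 50 kb. Beyond 50 kb of any protein-coding gene lay 248 (29.0%, 26.0% to 32.2%), against 17.3% of IFE only, 25.5% of HF only and 17.1% of all regions. Beyond 200 kb lay 110 (12.9%), against 4.65%, 8.71% and 5.22%. The intervals cover counting over regions and not the variation between mice. Long non-coding RNA spans overlapped 98 members (11.5%), of which 77 lay outside coding spans, against 13.7% of all regions. On the X chromosome lay 8 members (0.936%), against 2.16% of IFE only, 2.86% of HF only and 2.21% of all regions, and 2 members were among the 16 regions of the Y chromosome.

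**Figure D2:**
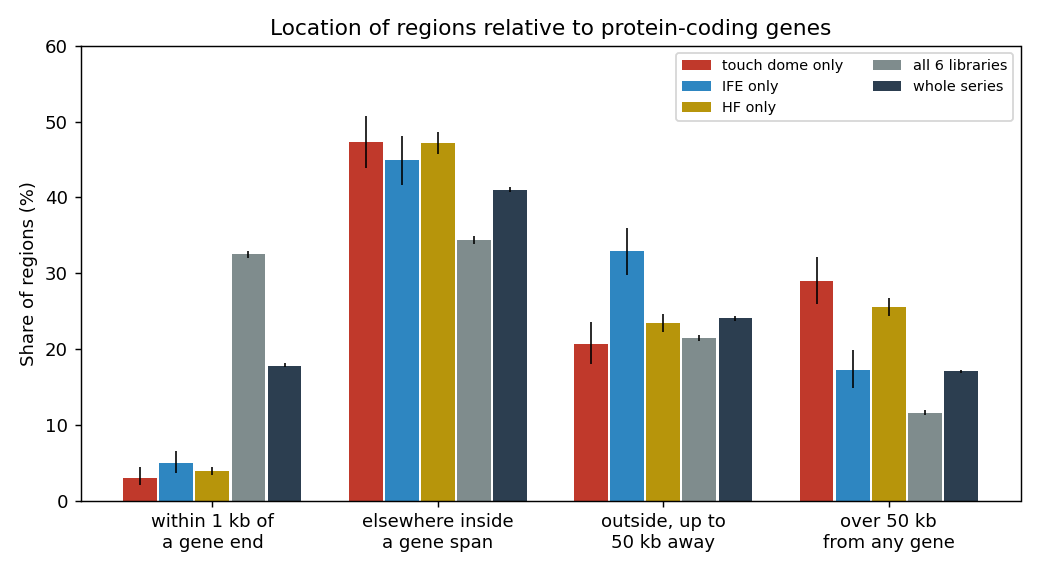
Share of regions (%, y) in 4 places relative to protein-coding genes (x), for touch dome only, IFE only, HF only, regions open in all 6 libraries and all regions; error bars are exact 95% binomial intervals over regions. Touch dome only regions were at 3.04% within 1 kb of a gene end and at 29.0% over 50 kb from any gene.

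The 10 members at gene ends with the longest peaks began with Zfpm2, at 1883 and 1934 bp. Pkd1l2 had 1279 and 1570 bp, and Kcnv1, a modulatory potassium channel subunit gene, had 1076 and 1212 bp, 841 bp from its gene end. 4930583I09Rik had 1059 and 1387 bp. Samd5 had 876 and 1043 bp, and St7 had 827 and 919 bp.

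Dcn, the gene of the matrix proteoglycan decorin, had 761 and 1325 bp, and Ccnjl had 790 and 706 bp. Cd40, a receptor of the tumour necrosis factor family, had 544 and 437 bp. Kcnk2, a stretch-sensitive potassium channel gene, had 472 and 424 bp. Over all 26 members at gene ends the medians were 444 and 411.5 bp, below those of all members.

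Touch dome only regions stood apart from the open chromatin of the other populations. Their median distance to the nearest IFE or HF peak was 12.4 kb. The matching distance was 4.25 kb for IFE only and 7.43 kb for HF only regions, each to peaks of the other 4 libraries. More than 100 kb from any such peak lay 124 touch dome only regions (14.5%, 12.2% to 17.0%), against 19 IFE only (2.05%) and 218 HF only regions (4.15%). Of the regions lying next to a member on either side, 7.37% were themselves touch dome only, against 1.13% next to any region. Neighbours of the same kind were also seen for HF only regions, at 13.3% beside their share of 6.93% of all regions. For IFE only regions they were at 1.84% beside 1.22%. Open in all 6 libraries were 31.5% of the neighbours of members, 48.5% of those of IFE only and 37.5% of those of HF only regions, against 45.2% next to any region.

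**Figure D3:**
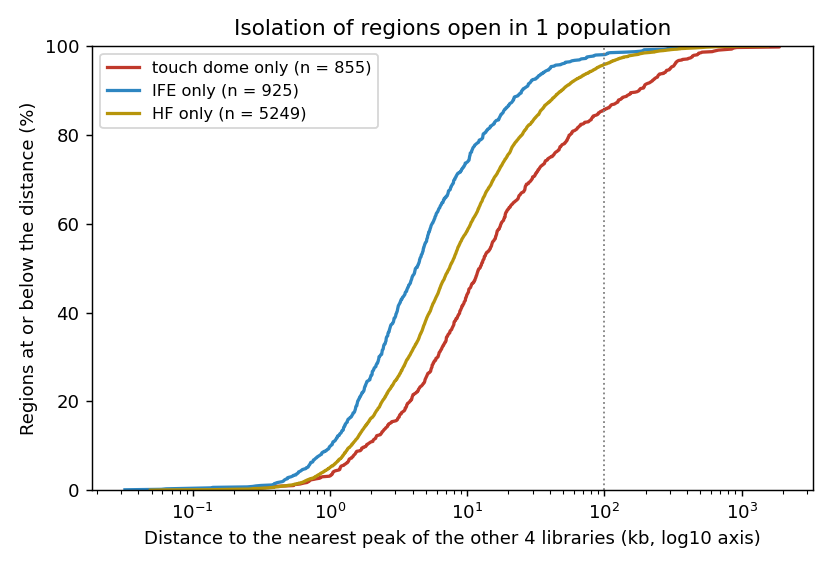
Share of regions (%, y) at or below a distance to the nearest peak of the other 4 libraries (x, kb, log10 axis), for touch dome only, IFE only and HF only regions; the dotted line is at 100 kb. The touch dome only curve runs to the right of the others over most of the range, and 14.5% of its regions lie past the dotted line.

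The isolated members had the longer peaks. The 124 members over 100 kb from an IFE or HF peak had median covered lengths of 587 and 688.5 bp, against 496 and 564 bp for the other 731. Inside a gene span lay 33.9% of the isolated members, against 51.7% of the others, and beyond 50 kb of a gene 55.6% against 24.5%. Genes of the synaptic and neural adhesion list were the nearest gene of 11 of the 124 (8.87%), against 9 of the 731 (1.23%). Among HF only regions the counts were 13 of the 218 isolated ones (5.96%) and 76 of the other 5031 (1.51%), and over all regions 0.767%. Among IFE only regions they were 1 of the 19 isolated ones (5.26%) and 5 of the other 906 (0.552%). The nearest gene was taken at any distance here, while the list counts below keep to 50 kb. The genes with the most isolated members, chosen after the values were seen, were Zfpm2 with 4, and G6pd2, Plppr1 and Tnni3k with 3 each. The 3 regions nearest to G6pd2, at chr5:60032520-60049542, lay 1759301 bp or more from any protein-coding gene and up to 1900 kb from an IFE or HF peak.

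Some members lay close to each other. With a distance of at most 100 kb counted as a group, 193 members (22.6%) fell into 86 groups of at least 2, and 14 groups held at least 3. The same count was not made for IFE only, HF only or all regions. Whether 22.6% is more than in those sets was therefore not tested. The largest held 5 members over 173 kb at Elk3, Lta4h and Cdk17 on chromosome 10, among 16 regions of which 9 had an IFE or HF peak. A group of 4 at Tnni3k and Erich3, at chr3:154723020-154817233, had no IFE or HF peak among its 5 regions. Near Synm, an intermediate filament gene, 4 members lay within 24.8 kb at 70.6 to 94.4 kb from the gene. A group of 4 at Cd44, the hyaluronan receptor gene, and Slc1a2, a glutamate transporter gene, lay in dense shared chromatin, where 13 of 22 regions were open in all 6 libraries.

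Each member within 50 kb of a protein-coding gene was given to the nearest one. This placed 607 members at 526 genes, 3.36% of the 15676 genes with any region, and members were 0.967% of all regions so placed. Of these genes, 463 had 1 member, 51 had 2 and 12 had at least 3. Genes with more members were longer, with a median span of 357 kb for those with at least 3, 85.3 kb for those with 1 and 23.1 kb for all genes with a region. Long genes offer more places for a region, and the part of length was not tested.

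Zfpm2 was open in touch dome libraries alone. All 4 of its consensus regions were touch dome only. The region at the low-coordinate end of the gene, chr15:40654849-40656817, had 1883 and 1934 bp. Inside the gene one at chr15:40824425-40826025 had 1223 and 1517 bp, and one at chr15:41028156-41029946 had 1779 and 1638 bp. The region 48.5 kb outside the gene had 905 and 1189 bp. The nearest IFE or HF peaks lay 133 to 506 kb from these regions. In total 41 genes had touch dome only regions and no other region. The same count was not made for IFE only or HF only regions. Most of the 41 had a single consensus region, and 5 of them had at least 2. The others of the 5, chosen after the values were seen, were Dcdc5, Fhl5, Lin7a, which encodes a scaffold protein of synapses and epithelial junctions, and Siglech, a receptor gene of plasmacytoid dendritic cells, with 2 each.

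Cfap299, a cilia and flagella associated gene, had the most members, 5 of its 16 regions. Its touch dome only regions covered 985 and 1317, 1006 and 1283, 593 and 453, 660 and 933, and 401 and 305 bp in touch dome replicates 1 and 2. The 3 regions open in both touch dome and both IFE libraries but not in HF all lay nearer to the high-coordinate end than any of the 5. By library, 11 and 13 of the 16 regions were open in touch dome, 6 and 5 in IFE, and 1 and 1 in HF.

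Kcnq3, which encodes a subunit of the voltage-gated potassium channel that carries the M current, had 4 of 9. Its members covered 761 and 646, 775 and 886, 592 and 1051, and 692 and 477 bp, all inside the gene and 3.48 to 80.6 kb from an IFE or HF peak. By library, 7 and 8 of its regions were open in touch dome, against 2 and 1 in IFE and 2 and 3 in HF. A region at the high-coordinate end of Kcnq3 was open in all 6 libraries, with 818 and 962 bp in touch dome, 538 and 524 bp in IFE, and 480 and 497 bp in HF.

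Slc35f1, a solute carrier family gene, had 4 of 12. They covered 588 and 514, 862 and 1028, 435 and 430, and 350 and 319 bp, and 3 of them lay within 17.0 kb. By library, 10 and 11 regions of Slc35f1 were open in touch dome, 5 and 4 in IFE, and 1 and 2 in HF. Tnni3k, a kinase gene known from heart muscle, had 3 of 4. Its members covered 800 and 922, 1316 and 1283, and 533 and 542 bp. No IFE or HF library had a peak at Tnni3k, and 3 and 4 of its regions were open in touch dome. With the wider 50% of peaks Zfpm2 kept its count of 4, while Cfap299 had 2, Slc35f1 and Tnni3k 1 each, and Kcnq3 0.

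**Figure D4:**
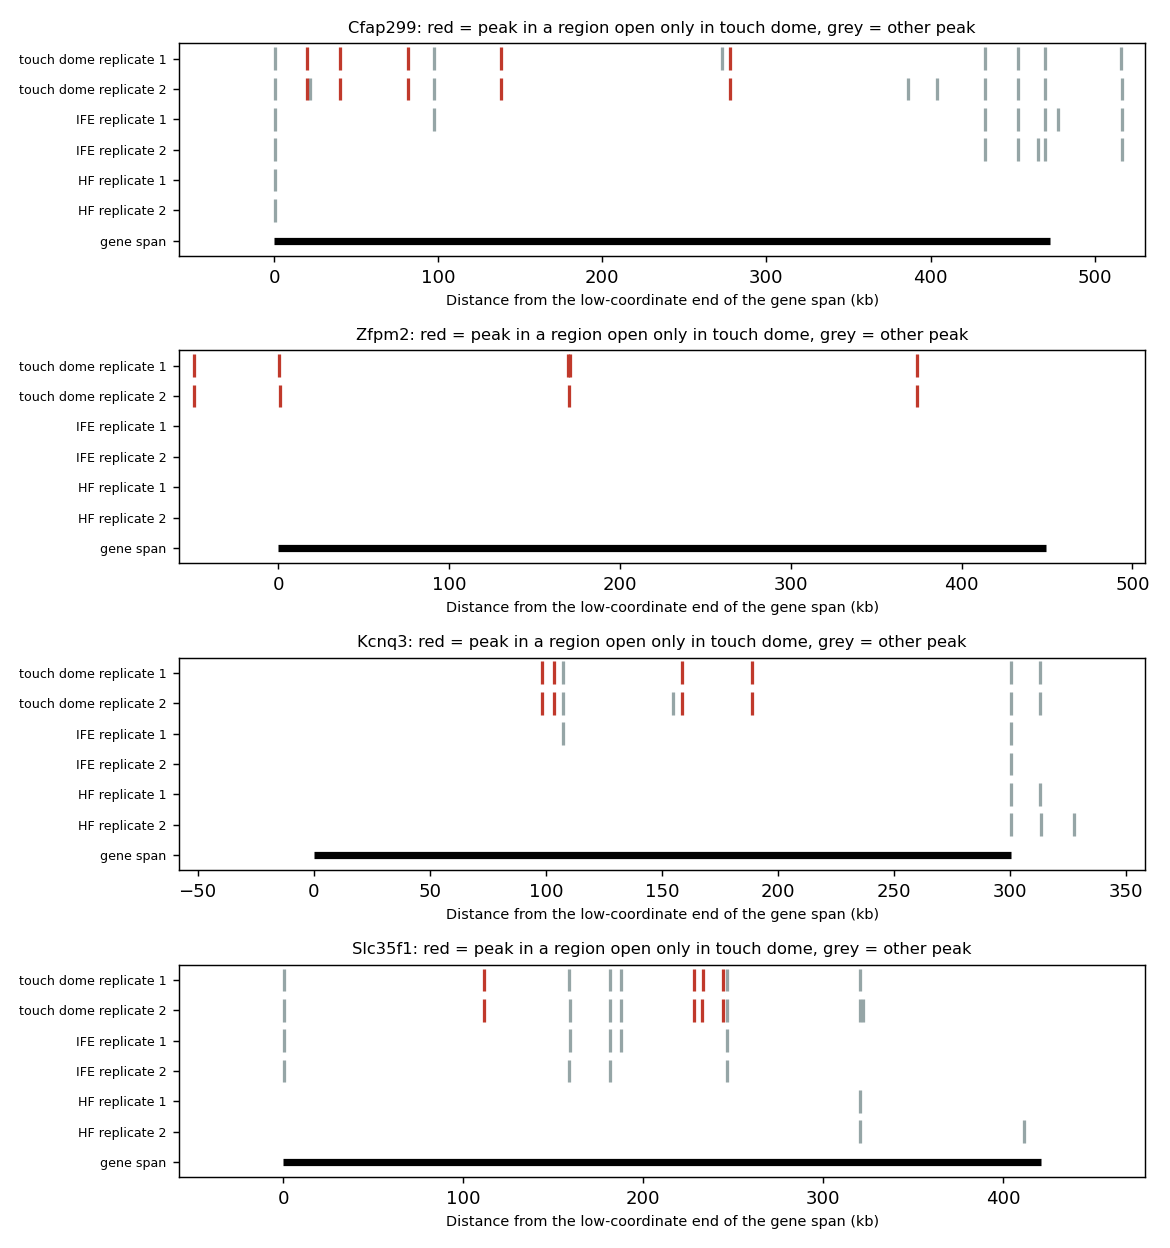
Peaks of each library (rows, touch dome replicates above IFE and HF) at Cfap299, Zfpm2, Kcnq3 and Slc35f1 against the distance from the low-coordinate end of the gene span (x, kb); red ticks are peaks in touch dome only regions, grey ticks other peaks, and the black bar is the gene. At Zfpm2 no IFE or HF peak is drawn, while the other 3 genes also hold regions shared with IFE or HF.

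Dock2, an exchange factor for Rac known from immune cell migration, had 4 of 12, with 512 to 877 bp in touch dome replicate 1 and 404 to 951 bp in replicate 2. Its regions were open in 11 and 10 cases in touch dome, 6 and 5 in IFE, and 5 and 4 in HF. St7 had 3 of 10 and Elk3, an ETS family transcription factor gene, 3 of 12. The members of Elk3 all lay outside the gene, at 15993, 32174 and 34127 bp. Nkain3, whose product interacts with the sodium pump, had 3 of 12, all with short peaks of 321 to 372 and 402 to 466 bp.

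Stk39, the gene of a kinase that regulates cation-chloride cotransporters, had 3 of 21, and 15 and 21 of its regions were open in touch dome, against 12 and 11 in IFE and 12 and 12 in HF. Ppp2r2b, a regulatory subunit gene of protein phosphatase 2A, had 3 of 18. Runx1, a transcription factor gene known from hair follicle stem cells, had 3 of 31, and 7 of its regions were HF only. By library, 17 and 22 regions of Runx1 were open in touch dome, 15 and 16 in IFE, and 25 and 25 in HF. One Runx1 member lay inside the gene, with 485 and 360 bp, and 2 lay outside, with 559 and 551 bp and 411 and 373 bp. With the wider 50% of peaks Elk3 had 2 members, Dock2 and St7 had 1 each, and Nkain3, Stk39, Ppp2r2b and Runx1 had 0.

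The 23 gene lists were compared by the share of their regions that were touch dome only, beside 0.967% over all regions near genes. The lists were written with earlier results of these data known, so the intervals describe counts over regions and are no test. Synaptic and neural adhesion genes had 15 of 432 (3.47%, exact 95% interval 1.96% to 5.66%), at 13 of 33 genes with a region. These genes are long, with a median span of 903 kb, and the ion channel list below has 368 kb. The part of gene length in these shares was not tested. HF only regions also took a larger share of this list than of all regions near genes, with 58 of 432 (13.4%) against 6.22%, while IFE only regions took 3 (0.694%) against 1.22%. Cntnap2, a neurexin-like adhesion gene, had 2 of 8, with 620 and 1241 bp and 404 and 607 bp. Sdk1, a sidekick family adhesion gene, had 2 of 20, with 671 and 894 bp and 422 and 358 bp. Gria1 and Csmd1 each had 1 region in all, which was touch dome only. Gria1, an AMPA glutamate receptor subunit gene, had 331 and 537 bp, and Csmd1, the gene of a large membrane protein, had 586 and 756 bp. Over the list, 225 and 296 regions were open in touch dome, 187 and 192 in IFE, and 295 and 291 in HF.

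Ion channel genes had 9 of 321 (2.80%, 1.29% to 5.26%), of which Kcnq3 held 4. HF only regions took 35 of the 321 (10.9%) and IFE only regions 6 (1.87%). With the wider 50% of peaks Kcnq3 had 0 touch dome only regions. Cacna1c, the gene of an L-type calcium channel, had 2 of 27, with 336 and 318 bp and 783 and 615 bp. Cacna1d, another L-type channel gene, had 1 of 10. Kcnmb2, a regulatory subunit gene of calcium-activated potassium channels, had 1 region in all, which was touch dome only with 434 and 358 bp. Neurotrophin and axon guidance genes had 8 of 471 (1.70%, 0.736% to 3.32%), while HF only regions took 47 (9.98%) and IFE only regions 7 (1.49%). Unc5c, a netrin receptor gene, had 2 of 7, with 481 and 362 bp and 1037 and 1184 bp. Robo1, a Slit receptor gene, had 2 of 21. Ntrk3, the neurotrophin-3 receptor gene, had 1 of 6, with 558 and 629 bp.

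**Figure D5:**
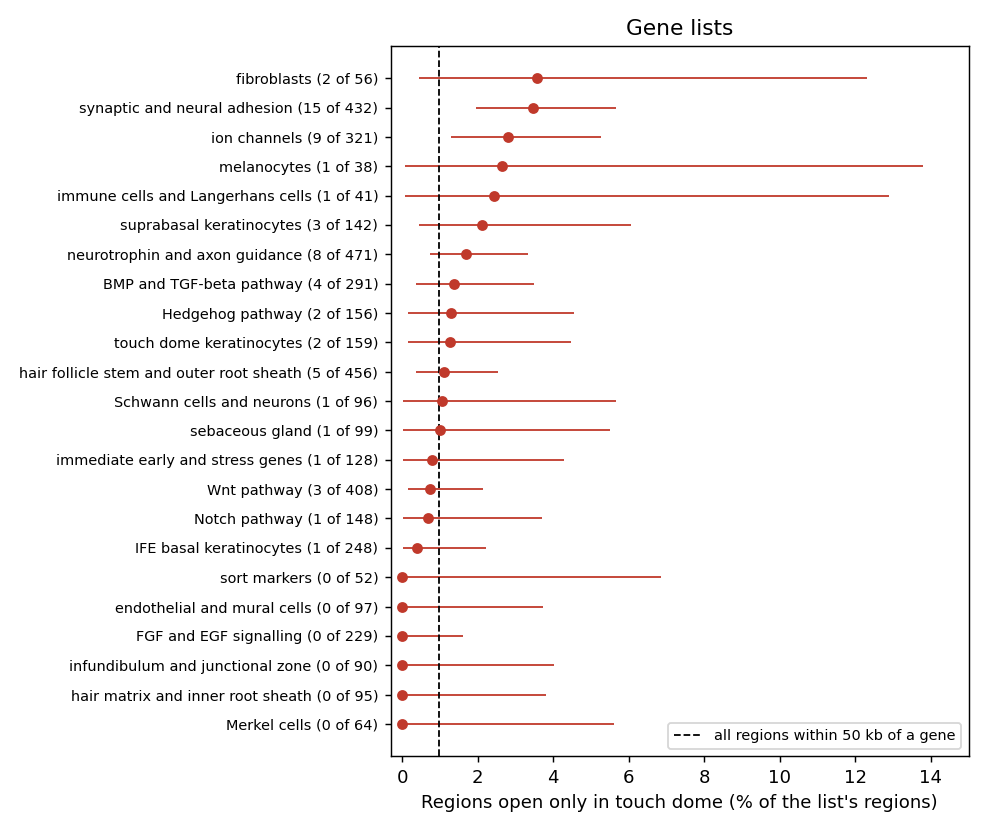
Touch dome only regions as a share of the regions of each gene list (x, %; y, the 23 lists with their counts); bars are exact 95% binomial intervals over regions and the dashed line is the share over all regions within 50 kb of a gene, 0.967%. The fibroblast and synaptic lists have the largest shares, 3.57% from 2 of 56 regions and 3.47% from 15 of 432. The intervals are no test.

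Epidermal lists with members had shares from 0.403% to 2.11%, beside 0.967% over all regions near genes, and none rests on more than 5 members. Touch dome keratinocyte genes had 2 of 159 (1.26%, 0.153% to 4.47%), at Igfbp2, an insulin-like growth factor binding protein gene with 492 and 598 bp, and at Epha3, an ephrin receptor gene with 457 and 448 bp. Hedgehog pathway genes had 2 of 156 (1.28%), at Gli2, a transcription factor of the pathway with 341 and 363 bp, and at Disp1, which releases the ligand, with 536 and 646 bp. Suprabasal genes had 3 of 142 (2.11%), of which 2 lay at Abca12, a lipid transporter gene of the skin barrier, and 1 at Grhl1, a transcription factor gene of differentiating epidermis. Hair follicle stem and outer root sheath genes had 5 of 456 (1.10%), at Runx1, Lhx2 and Sfrp1. IFE basal genes had 1 of 248 (0.403%), inside Trp63, the p63 gene, with 496 and 458 bp. Sebaceous gland genes had 1 of 99, near Scd1, a fatty acid desaturase gene.

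The signalling lists had shares of up to 1.37%, beside the background share of 0.967%, and none rests on more than 4 members. BMP and TGF-beta genes had 4 of 291 (1.37%), 1 each at Bmp3, Bmpr2, Smad2 and Ltbp1. The Bmp3 member had 399 and 1449 bp, a wide gap between the libraries. Wnt genes had 3 of 408 (0.735%), at Wnt6, Sfrp1 and Ror2. Notch genes had 1 of 148, near Notch2, and immediate early and stress genes 1 of 128, near Klf6. FGF and EGF signalling genes had 0 of 229, which allows a share of up to 1.60% by the exact interval.

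Merkel cell genes had 0 of 64 regions, which allows a share of up to 5.60%. Over this list 39 and 51 regions were open in touch dome, 44 and 34 in IFE, and 43 and 48 in HF, and Pou4f3, Vip and Slc17a6 had no region in any library. At Atoh1, the transcription factor gene of Merkel cells, the only region was open in touch dome replicate 2 and IFE replicate 1. The hair matrix, infundibulum and sort marker lists also had 0 members within 50 kb, of 95, 90 and 52 regions, with upper limits of 3.81%, 4.02% and 6.85%. Of the other sort markers, Itga6, the α6-integrin gene, had 14 and 14 open regions in touch dome, 20 and 15 in IFE, and 9 and 9 in HF. Ly6a, the SCA1 gene, had 4 and 4 in touch dome, 5 and 5 in IFE, and 2 and 2 in HF. Epcam had 6 and 7 in touch dome, 7 and 6 in IFE, and 7 and 7 in HF.

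Lists of cell types outside the keratinocyte lineage held 5 members in sum, and their shares stand beside 0.967% over all regions near genes. Fibroblast genes had 2 of 56 (3.57%, 0.435% to 12.3%), the largest share of the 23 lists. They lay at Dcn and at Dpt, a matrix protein gene with 670 and 569 bp. HF only regions also took a larger share of this list, 8 of 56 (14.3%), than of all regions near genes (6.22%). IFE only regions took 1 (1.79%) against 1.22%. Over the fibroblast list 33 and 39 regions were open in touch dome, 30 and 25 in IFE, and 40 and 40 in HF. Melanocyte genes had 1 of 38 (2.63%), near Oca2, a melanosome transporter gene with 627 and 413 bp. Of the 38, 27 and 32 were open in touch dome, 21 and 20 in IFE, and 29 and 30 in HF. Tyr and Kit had no region in any library.

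Immune genes had 1 of 41 (2.44%), the single region of Ptprc, the CD45 gene, with 356 and 772 bp. Of the 41, 28 and 31 were open in touch dome, 30 and 26 in IFE, and 28 and 29 in HF, and Cd207, Itgax, Csf1r and 8 further genes of the list had no region in any library. Schwann cell and neuron genes had 1 of 96 (1.04%), inside Map2, a microtubule protein gene of neurons, with 517 and 687 bp. Over that list 57 and 72 regions were open in touch dome, 61 and 63 in IFE, and 60 and 68 in HF. Endothelial and mural genes had 0 of 97, with an upper limit of 3.73%, and 58 and 71 regions were open in touch dome, 66 and 69 in IFE, and 69 and 77 in HF. The part of other cell types in the touch dome only regions was not tested.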

How the data were processed

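The data were ATAC-seq peak lists of 6 libraries, 2 each of touch dome, IFE and HF cells. The submitters' processing notes name MACS2 2.2.7.1, SAMtools 1.9, Bowtie2 2.4.5, Trim Galore 0.6.7 and the mm10 build. How they were set, which reads were filtered or shifted and where peaks were cut off was not given in the sources used here. Lists deposited by the authors hold 4 columns (position and a peak name), 1 list per library, and no score or height. Positions are printed counted from 1. A list called per library depends on its depth, which is unknown.

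Consensus regions were built with pandas 2.3.3 and numpy 2.4.6 on Python 3.11.15, from peaks overlapping by at least 1 bp. Groups came from the labels. Each region was given to the nearest of 21887 protein-coding spans of RefSeq (GRCm38.p6) within 50 kb, with overlapping spans decided by the nearest midpoint, and gene ends are either end of a span. Start sites (32851) came with 250 bases upstream and 50 downstream, of which the upstream bases were searched for 15 motifs on both strands. Members on chromosome 18 had no start site to compare and are counted out of the start site share. On other chromosomes the start sites were incomplete too, as at Kcnv1. Exact binomial 95% intervals (scipy 1.17.1) cover counting over regions alone. Figures used matplotlib 3.10.9. No test was run, since the rule used all 6 libraries. The planned motif windows at region centres were replaced by promoter windows because no genome sequence was used here.

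On simulated data, 0 of 8658 library states and 0 of 1443 distances were wrong. The members, the 23 gene lists and the motifs were chosen with earlier results of these data known. Named were genes with at least 3 members, up to 4 genes per list with a member, the sort markers, the 10 members with the longest peaks in both libraries and up to 10 members within 1 kb of a gene end. Where these gave ties, the larger share of the gene's regions decided. Alternatives changed the merging distance, peak cover, peak width, peak number, chromosomes, libraries and gene windows. At most 1 gene that this rule could name is not reported here.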

Additional observations from a re-analysis of the deposited data

How the results depend on the processing

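The lists hold no score, so stricter peak sets were made by width, and peaks merged within 100 bp gave 855 touch dome only regions again. With the wider 50% of peaks the counts were 358 touch dome only, 398 IFE only and 2500 HF only regions, with 260 genes, 6.98% at gene ends, 76.5% within 50 kb, a median width of 1143 bp and a median distance of 19017.5 bp to an IFE or HF peak. With equal numbers of the widest peaks there were 670 touch dome only, 1572 IFE only and 4576 HF only regions, gene ends took 1.94%, the width was 781 bp and the distance 14653 bp. Requiring peaks to cover 50% of a region gave a distance of 7799.5 bp. Gene ends within 500 bp took 1.87% and within 2 kb 4.80%, and gene windows of 10 and 100 kb held 57.7% and 78.5%. Leaving out 1 library at a time gave 940 to 2905 touch dome only regions, 1002 to 2802 IFE only and 5427 to 8747 HF only. It gave 578 to 1715 genes, 3.30% to 4.73% at gene ends, 71.5% to 75.2% within 50 kb, widths of 426 to 668.5 bp and distances of 9098 to 12716 bp. The cause was not tested, although a rule with 1 library fewer asks for less. The count for a gene with at least 3 members kept within 1.5 times in 114 of 132 cases. Leaving out a library relaxes the rule and all 12 genes are autosomal, so those cases could not fall. Merging within 100 bp and 50% cover lowered no count either. With the wider 50% of peaks 11 of these 12 genes had fewer members, and Kcnq3, Nkain3, Ppp2r2b, Stk39 and Runx1 had 0. With equal numbers of the widest peaks 7 had fewer and none had 0. Cfap299 then had 3, Slc35f1 2, and Elk3, Nkain3 and Runx1 1 each. No paired analysis was made, and the labels do not say which libraries share mice. The planned motif search over whole regions was not run. Depth is unknown, so presence and absence of weak peaks cannot be graded, and 2 libraries per population leave the spread between mice unmeasured.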
